A study of Mus musculus with 24 samples.

Results

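Read coverage of mouse mitochondrial DNA (mtDNA) was compared between 60 and 5 min of bisulfite treatment within the same DNA preparation, strand by strand. The members are the 5 preparations that were treated for both durations, giving 10 of the 24 libraries of the series, and all 5829 listed cytosines, of which 3890 belong to the L strand and 1939 to the H strand. The coverage of a cytosine, the number of reads over it, was taken as a share of the total coverage of its library over both strands. Shares say nothing of the amount of DNA that remained, because the study brought the libraries to an equal concentration before pooling. A loss below is therefore a fall of a share, and it is always accompanied by a rise of other shares.

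The study asked how much 5-methylcytosine mouse mtDNA holds, using post-bisulfite adaptor tagging (PBAT), in which random priming adds the adaptors only once the bisulfite step is over. Brain 1 and liver 1 are mtDNA from mitochondria of C57BL/6J mice, and ESC 1 and ESC 2 are independent preparations of the embryonic stem cell line E14, which was grown on feeder cells in 2i-LIF medium. The synthetic mtDNA is a single PCR product with the C57BL/6J label and no 5-methylcytosine. The native preparations were linearised with BglII and also contained mitochondrial RNA, all 5 preparations were mixed with λDNA, and no ages or numbers of animals were given.

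Mouse mtDNA is a small circle whose strands differ in base composition, the H strand being rich in guanine and the L strand rich in cytosine. It encodes subunits of the respiratory chain and of ATP synthase together with the rRNAs and tRNAs needed to translate them, and a control region carries the origin of H-strand replication and the promoters. Bisulfite converts unmethylated cytosine to uracil, read as thymine, and it breaks DNA during the same incubation, so that the reads of a library come from the fragments that could still be copied.

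The total coverage of the 10 libraries was 783281 to 2154500 calls, a call being 1 read over 1 cytosine. The synthetic library of 60 min was the deepest and that of ESC 2 after 60 min the shallowest. No pair among the 45 pairs of these libraries had identical coverage. A read covers several neighbouring cytosines, so neighbouring sites are not independent of each other.

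The L strand lost coverage share in all 5 preparations. The L-strand share fell from 37.3 to 21.9% in ESC 1, from 36.8 to 21.8% in ESC 2, from 41.2 to 24.7% in brain 1, from 38.8 to 22.6% in liver 1 and from 39.1 to 25.4% in synthetic mtDNA. The means were 38.6% ± 1.71 (SD, n = 5) at 5 min and 23.3% ± 1.68 at 60 min, and the ranges of the durations did not overlap. On the log2 scale, the odds of L-strand over H-strand coverage changed by -1.06 ± 0.08 (SD, n = 5), a factor of 0.481. The exact two-sided sign-flip permutation test over the 5 preparations gave p = 0.0625, which is the smallest value 5 pairs allow.

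Most of this difference was present after 15 min, when the L-strand share was 25.4% ± 2.64 (SD, n = 5), and the shares were 21.6% ± 3.21 at 40 min and 23.3% ± 1.68 at 60 min. The 15 min values lay between 22.5 and 28.8%, below every 5 min value. The values of 40 and 60 min overlapped. In the 60 min libraries of ESC 3, brain 2 and liver 2, which have no 5 min partner, the L-strand share was 21.2, 18.6 and 21.0%, also below every 5 min library.

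**Figure D1:**
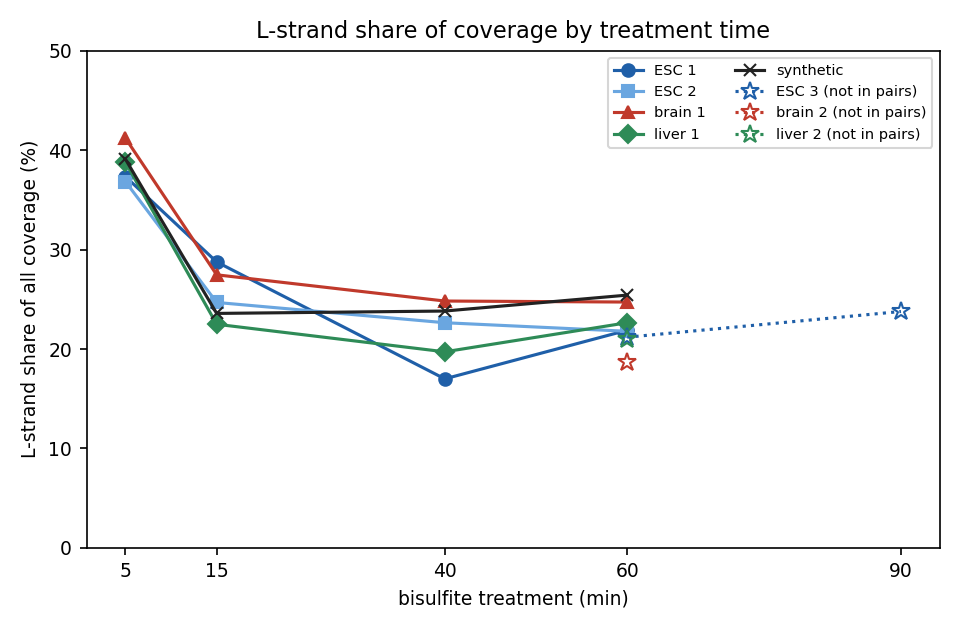
L-strand share of the total coverage (%) against bisulfite treatment time (min), with a line for each of the 5 preparations treated for 5 to 60 min and stars for the preparations outside the pairs. The 5 min libraries lie between 36.8 and 41.2% and the paired 60 min libraries between 21.8 and 25.4%.

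As a share of all calls, unconverted L-strand calls fell and converted ones rose. Unconverted L-strand calls took 26.0% ± 0.79 of all calls at 5 min and 7.91% ± 0.70 at 60 min (SD, n = 5), a log2 change of -1.72 ± 0.13. Converted L-strand calls rose in all 5 preparations, from 12.7% ± 1.17 to 15.4% ± 1.84, a log2 change of 0.28 ± 0.12. On the H strand, converted calls rose from 41.5% ± 1.09 to 76.4% ± 1.69, a log2 change of 0.88 ± 0.05, and unconverted calls fell from 19.9% ± 1.36 to 0.308% ± 0.05. Each of these 4 changes had the same sign in 5 of 5 preparations, with p = 0.0625 in the exact sign-flip permutation test. Conversion moves calls from the unconverted to the converted class, so these values do not follow single molecules. A fall of unconverted calls with longer treatment was therefore given in advance. So was a rise of converted calls over both strands together, since the classes are shares of the same total. The tests of these 4 changes add nothing on a loss of coverage. Among converted calls alone, the L over H odds still fell, by 0.60 on the log2 scale. Of the 1921 L-strand sites tested on converted calls, 823 fell (42.8%) and 388 rose (20.2%). On the H strand 562 of 1921 fell (29.3%) and 512 rose (26.7%).

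**Figure D2:**
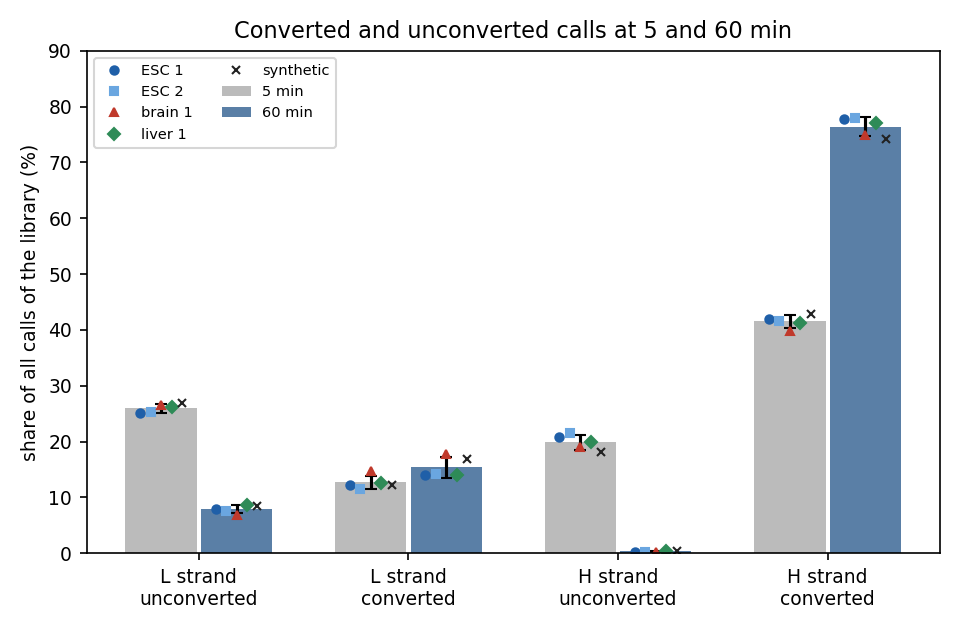
Share of all calls of a library (%) for unconverted and converted calls of each strand at 5 min (grey) and 60 min (blue), bars being means of 5 preparations, error bars SD and points single libraries. Converted L-strand calls stay near 12.7 and 15.4%, while unconverted L-strand calls go from 26.0 to 7.91%.

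Among single cytosines, the L strand lost share at most sites that could be tested. Of its 3890 listed sites, 3400 had a mean coverage of at least 10 over the 10 libraries, and edgeR's quasi-likelihood test with Benjamini-Hochberg adjustment called 2177 lower (64.0%) and 391 higher (11.5%) at 60 min. Of the 1939 H-strand sites 1932 were tested, of which 729 were higher (37.7%) and 457 lower (23.7%). Over both strands 49.4% of the tested sites fell and 21.0% rose. The median log2 change was -1.35 on the L strand, with quartiles of -2.77 and -0.06, and 0.19 on the H strand. A share lower by more than 2 on the log2 scale was found at 1218 L-strand sites, 35.8% of those tested, and at 40 H-strand sites, 2.07%.

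The H-strand direction depended on the scaling. When each site was taken as a share of its own strand, the H strand had 478 sites higher and 692 lower with a median of -0.13, whereas the L strand still had 1752 sites lower and 902 higher with a median of -0.63. With edgeR's TMM scaling, which moves the median of all sites from -0.52 to -0.03, 46.3% of all called sites were higher, against 29.8% without it. The corresponding value was 44.7% with DESeq2, 36.1% with shares of the same strand and 39.4% for converted calls.

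**Figure D3:**
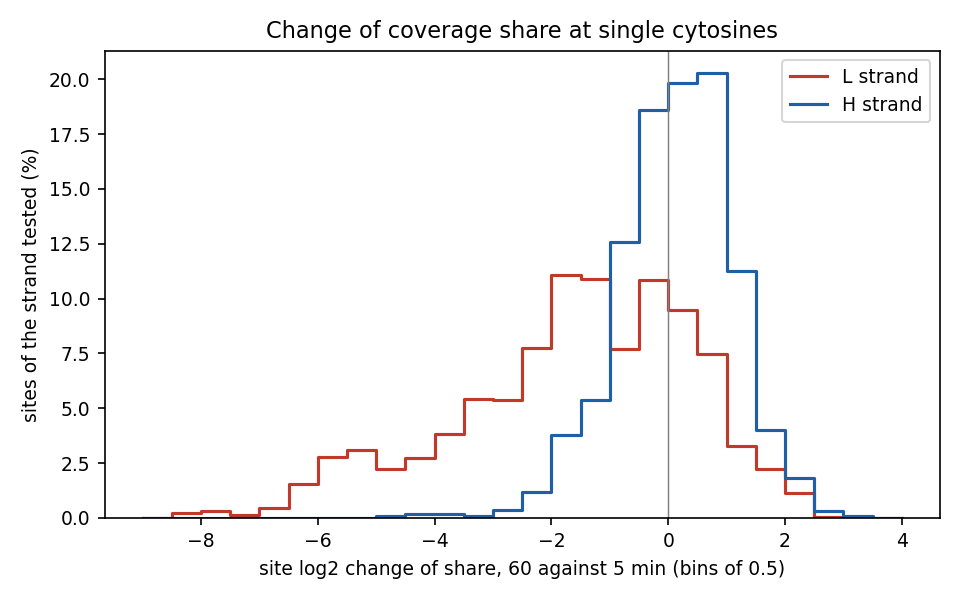
Distribution of the log2 change of share between 60 and 5 min at single cytosines, as a percentage of the tested sites of each strand in bins of 0.5. The L strand has a long tail of losses, with 35.8% of sites below -2, and the H strand centres near 0.19.

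Some L-strand cytosines were no longer covered after 60 min. Of the L-strand sites with at least 10 reads at 5 min, 9.58% had no read at 60 min in ESC 1 and 10% in ESC 2, against 5.00% for brain 1, 8.86% for liver 1 and 1.91% for the synthetic preparation. The H-strand share was at most 0.467%, in ESC 1. The total depth touches these counts, since synthetic mtDNA had the most calls at 60 min and the ESC 2 library the fewest. The coverage that remained on the L strand was also held by fewer sites. The 389 most covered L-strand sites, 10% of the strand, held 42.3% ± 1.18 of its coverage at 5 min and 57.5% ± 3.05 at 60 min (SD, n = 5), a rise in 5 of 5 preparations (exact sign-flip permutation test, p = 0.0625). The corresponding H-strand values were 34.7% ± 2.98 and 35.6% ± 3.11, with a rise in 3 of 5 preparations (exact permutation p = 0.4375). The L-strand rise was 14.8 to 18.5 percentage points in the native preparations and 9.89 in synthetic mtDNA. Only in synthetic mtDNA was the mean L-strand coverage higher at 60 min. The part of depth in this measure was not tested.

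The sequences around the sites with the largest changes are shown to let the losses and gains be compared base by base. Each window spans 51 nt of the stated strand, 5′ to 3′, with the site in the middle and the cytosines of that strand in capitals. Positions are those of mm10 chrM, and the sequences were read from the reference of that length. The L-strand sites that lost most were in ND6 and ND2, which encode subunits of complex I, the NADH dehydrogenase of the respiratory chain. ND6 is the protein gene transcribed in the opposite direction to the others.
L13842, ND6, chrM:13817-13867, L strand: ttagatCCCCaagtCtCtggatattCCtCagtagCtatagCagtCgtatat
L13615, ND6, chrM:13590-13640, L strand: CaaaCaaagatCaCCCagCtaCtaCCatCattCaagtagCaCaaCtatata
L4672, ND2, chrM:4647-4697, L strand: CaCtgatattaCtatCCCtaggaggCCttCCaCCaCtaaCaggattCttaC
The L-strand sites that gained most share were in COX3, a subunit of cytochrome c oxidase, and in TrnW, the gene of the tryptophan tRNA.
L9360, COX3, chrM:9335-9385, L strand: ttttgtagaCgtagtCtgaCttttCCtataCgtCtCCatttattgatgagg
L4979, TrnW, chrM:4954-5004, L strand: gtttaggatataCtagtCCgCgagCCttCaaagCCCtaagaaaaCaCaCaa
L9077, COX3, chrM:9052-9102, L strand: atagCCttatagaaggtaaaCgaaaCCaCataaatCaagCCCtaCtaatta
The H-strand sites that lost most were in mt-Rnr1, the 12S rRNA gene, and in TrnF, the gene of the phenylalanine tRNA.
H892, mt-Rnr1, chrM:867-917, H strand: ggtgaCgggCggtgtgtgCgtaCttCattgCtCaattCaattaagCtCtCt
H39, TrnF, chrM:14-64, H strand: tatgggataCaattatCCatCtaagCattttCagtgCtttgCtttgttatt
H746, mt-Rnr1, chrM:721-771, H strand: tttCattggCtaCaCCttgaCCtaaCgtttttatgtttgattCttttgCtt
The H-strand sites that gained most were in ND4, another subunit of complex I, and in ATP8, a small subunit of ATP synthase.
H10891, ND4, chrM:10866-10916, H strand: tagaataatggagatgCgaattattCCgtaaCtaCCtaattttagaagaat
H10425, ND4, chrM:10400-10450, H strand: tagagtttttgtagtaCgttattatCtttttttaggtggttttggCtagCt
H7870, ATP8, chrM:7845-7895, H strand: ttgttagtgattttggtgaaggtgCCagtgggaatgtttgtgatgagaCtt

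The 3 L-strand losses were nearly complete. At L13842 coverage at 5 min was 52 in ESC 1, 33 in ESC 2, 78 in brain 1, 31 in synthetic mtDNA and 31 in liver 1, and it was 0 in all 5 libraries at 60 min. At L13615 it was 100, 115, 118, 86 and 67 in the same order at 5 min, and a single read, in ESC 2, was left at 60 min. At L4672 it was 23, 26, 48, 14 and 16 at 5 min and 0 in all 5 libraries at 60 min. These counts did not overlap between the durations, and the other 2 L-strand sites of the set, L15504 in the control region and L7023 in COX2, went from sums of 110 and 472 reads to 0 and 3. The sites were chosen as the largest falls seen in all 5 preparations, so the lack of overlap is a description. Sites with 0 reads at 60 min met the coverage minimum through their 5 min reads alone. At 5 min the median percent unconverted at L13842, L13615 and L4672 was 93.6, 100 and 100%.

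The L-strand gains were at sites whose calls were nearly all converted at 60 min. At L9360 coverage was 56, 130, 84, 86 and 64 at 5 min and 171, 313, 1144, 252 and 833 at 60 min in ESC 1, ESC 2, brain 1, liver 1 and synthetic mtDNA, a log2 change of share of 2.51 (edgeR adjusted p = 8.97e-10). The median percent unconverted at this site went from 24.4 to 0.1%. At L4979 the sums over the 5 preparations were 50 and 277 reads (log2 change 2.49), and at L9077 they were 252 and 1243 (2.32). Coverage at L9360 and L9077 in every 60 min library exceeded that in every 5 min library.

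In the order ESC 1, ESC 2, brain 1, liver 1 and synthetic mtDNA, H892 in mt-Rnr1 had 76, 156, 205, 92 and 77 reads at 5 min and 3, 2, 4, 0 and 11 at 60 min, a log2 change of -4.83 (edgeR adjusted p = 3.19e-13). All 5 libraries of 60 min lay below those of 5 min. H39 went from a sum of 329 to 18 reads, and H746 from 5791 to 615. Among the gains, H10425 had 94, 162, 149, 120 and 107 reads at 5 min and 565, 528, 1398, 868 and 1127 at 60 min, a log2 change of 2.90 (edgeR adjusted p = 8.23e-13), without overlap. H10891 went from 347 to 2502 reads and H7870 from 1649 to 9639.

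The windows of these sites differed in their base content as follows. The 5 L-strand losses had 9 to 15 other L-strand cytosines within 25 nt and 4 to 9 H-strand cytosines, which are guanines of the L strand. The 5 L-strand gains had 7 to 12 and 6 to 10. The 5 H-strand losses had 3 to 10 other cytosines of their strand and the 5 gains 2 to 8, beside 7 to 14 and 9 to 20 cytosines of the other strand. Over all listed sites the medians were 12 and 6 on the L strand and 7 and 12 on the H strand. These 20 sites were chosen by the size of their change, so these numbers are a description. The same holds for the counts, the overlaps and the adjusted p-values given for them above.

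By gene, the protein genes of the L strand lost share together. Coverage was summed over the listed cytosines of each gene and of the control region, strands apart, which gave 70 features, 35 for each strand, since 3 of the 22 tRNA genes were not analysed here. Of the 35 L-strand features, 21 fell (60.0%) and 7 rose (20%), and of the 35 H-strand features 13 rose (37.1%) and 9 fell (25.7%), by edgeR with Benjamini-Hochberg adjustment over all 70. Without the ESC 1 pair, 3 L-strand features rose. Over both strands 42.9% fell and 28.6% rose. The L-strand change was below the H-strand change in 25 of the 35 genes and above it in 10. In 9 genes the L strand fell and the H strand rose, both called. In 2 genes the L strand rose and the H strand fell, both called.

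Of the 13 protein genes, 12 fell on the L strand, with a median log2 change of -1.22, and the remaining gene, COX3, was not called (0.22, edgeR adjusted p = 0.302). On the H strand 6 of the 13 rose, the other 7 were not called, and the median was 0.36, which became 0.04 as a share of the same strand. For comparison, the median over all 70 features was -0.04. As shares of the L strand alone, 6 of the 13 protein genes fell and 1 rose, with a median of -0.49, where 11 of all 35 L-strand features fell and 11 rose (31.4% each).

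**Figure D4:**
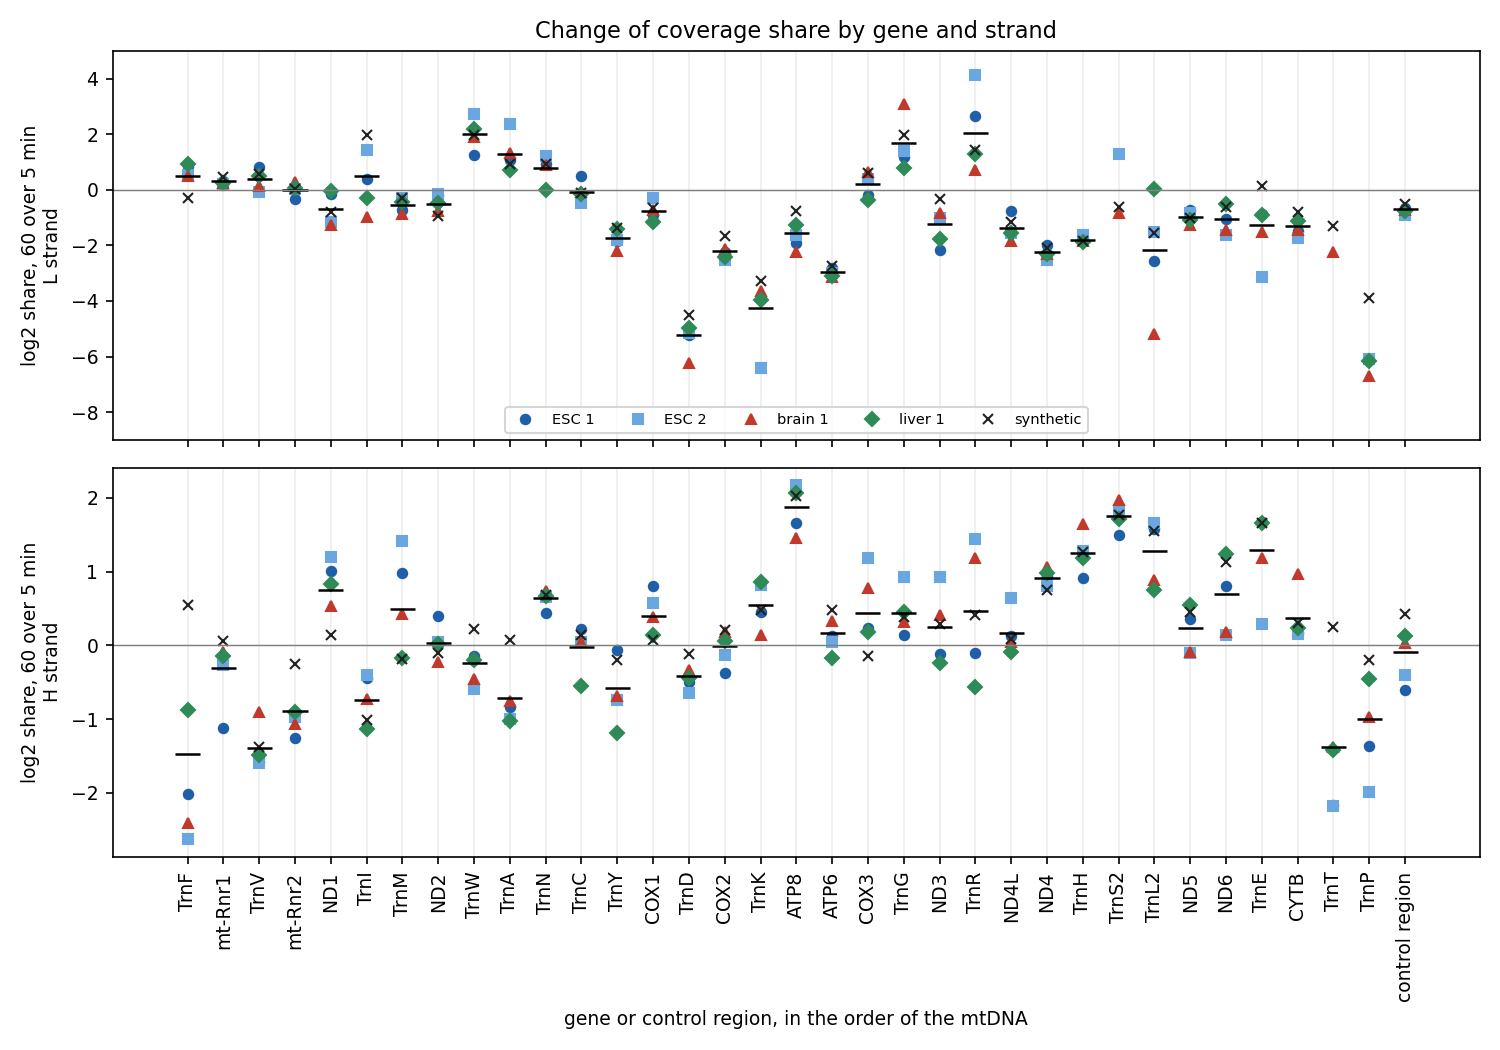
Log2 change of the coverage share between 60 and 5 min for each gene and the control region, in the order of the mtDNA, on the L strand (top) and the H strand (bottom), with a symbol for each preparation and a bar for the mean where all 5 have a ratio. Most protein genes lie below 0 on the L strand, with ATP6 at -2.95, and ATP8 lies at 1.87 on the H strand, while symbols are missing where a library had no call.

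The genes of ATP synthase, the enzyme that makes ATP from the proton gradient, showed the largest L-strand loss and the largest H-strand gain among protein genes when all calls were counted. ATP6, which encodes the subunit that forms the proton channel (chrM:7927-8607), had L-strand shares of 1.08, 1.14, 1.53, 1.28 and 1.73% at 5 min and 0.155, 0.145, 0.173, 0.151 and 0.259% at 60 min in ESC 1, ESC 2, brain 1, liver 1 and synthetic mtDNA. The durations did not overlap, and the log2 change was -2.95 ± 0.18 (SD, n = 5, edgeR adjusted p = 2.17e-07). Among converted calls it was -1.10 (edgeR adjusted p = 0.00432), and ND6 (-3.74), ATP8 (-2.73), COX2 (-1.75), ND4L (-1.44), ND4 (-1.36) and ND5 (-1.35) fell by more. The values of ATP8 and ND6 rest on few converted calls. At 60 min 99.6% of the ATP8 and 99.5% of the ND6 L-strand calls were unconverted on average, with up to 100% for ATP8. The H-strand share of ATP6 was 1.77% at 5 min and 2.03% at 60 min on average and was not called (0.16, edgeR adjusted p = 0.315).

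ATP8 (chrM:7766-7969), which overlaps ATP6, moved in opposite directions on its strands. Its L-strand share was 0.662, 0.5, 0.572, 0.709 and 0.604% at 5 min and 0.175, 0.160, 0.120, 0.297 and 0.356% at 60 min, a log2 change of -1.57 ± 0.58. Its H-strand share was 0.327, 0.208, 0.296, 0.354 and 0.290% at 5 min and 1.03, 0.936, 0.811, 1.48 and 1.17% at 60 min, a log2 change of 1.87 ± 0.30 (edgeR adjusted p = 5.19e-06). Neither strand had overlapping durations. The calls that remained on the ATP8 L strand were 99.4% unconverted at 5 min and 99.6% at 60 min, whereas those of the ATP6 L strand went from 94.0 to 64.1%.

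All 7 genes of complex I fell on the L strand, with a median log2 change of -1.04, where 60.0% of all L-strand features fell. As shares of the L strand 2 of the 7 fell, with a median of -0.31, where 31.4% of all L-strand features fell. On the H strand 3 of the 7 rose (median 0.25, or -0.07 as a share of the same strand), where 37.1% of all H-strand features rose. ND4 (chrM:10167-11544), a membrane subunit of the proton-pumping arm, had L-strand shares of 2.96, 3.23, 2.71, 2.97 and 2.46% at 5 min and 0.749, 0.562, 0.547, 0.592 and 0.571% at 60 min. The log2 change was -2.25 ± 0.21 (edgeR adjusted p = 6.43e-07), without overlap. The H-strand share of ND4 rose from 6.05 to 11.4% on average, by 0.91 ± 0.13, also without overlap. ND4L, which neighbours ND4, fell by 1.37 on the L strand, and ND5 by 0.99 and ND6 by 1.04. As shares of the L strand the changes of ND3 (-0.49), ND5 (-0.25) and ND6 (-0.31) were not called. ND6 and ND2 kept mostly unconverted L-strand calls at 60 min, 99.5 and 91.6%, and so did ND5 and ND4, with 70.2 and 64.3%. The values were 23.3% in ND4L, 19.6% in ND3 and 12.7% in ND1.

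The smaller L-strand losses in complex I rested on the scaling. ND1 changed by -0.68 and ND2 by -0.50 as shares of the total, but by 0.05 and 0.23 as shares of the L strand, neither of which was called. Both calls were lost without the brain 1 pair (edgeR adjusted p = 0.0706 for ND1 and 0.0643 for ND2). With TMM scaling both were lost too (edgeR adjusted p = 0.0503 for ND1 and 0.142 for ND2). Among converted calls ND1 was not called (-0.37, edgeR adjusted p = 0.217) but ND2 was (-0.59, edgeR adjusted p = 0.0176). With DESeq2 ND1 was called (DESeq2 adjusted p = 0.00917) but ND2 was not (0.0558). ND3 changed by -1.22 among all calls but by 0.88 among converted calls (edgeR adjusted p = 0.0678). The H-strand gains were 0.75 in ND1 and 0.70 in ND6, the latter with overlapping durations. The ND6 call was lost as a share of the same strand (0.38, edgeR adjusted p = 0.123) and among converted calls (0.45, edgeR adjusted p = 0.0959).

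Cytochrome c oxidase, the terminal enzyme of the respiratory chain, had 2 of 3 genes that fell on the L strand, where 60.0% of all features fell. COX2 (chrM:7013-7696), the subunit that takes electrons from cytochrome c, had L-strand shares of 0.850, 0.989, 0.767, 0.924 and 0.717% at 5 min and 0.182, 0.171, 0.176, 0.171 and 0.228% at 60 min. The change was -2.19 ± 0.34 (edgeR adjusted p = 3.52e-06), and no 60 min library reached a 5 min library. COX1, the catalytic subunit, fell from 5.51 to 3.32%, a log2 change of -0.75, which was -0.02 as a share of the L strand. COX3 held 1.29% at 5 min and 1.53% at 60 min, with 3 of 5 preparations higher, and it rose as a share of the L strand (0.95, edgeR adjusted p = 0.00135). COX1 rose by 0.39 on the H strand, a call that was lost without ESC 1 (edgeR adjusted p = 0.0747) or without ESC 2 (0.076), as a share of the same strand (0.07, edgeR adjusted p = 0.65) and among converted calls (0.15, edgeR adjusted p = 0.362). COX3 was not called on the H strand (0.44, edgeR adjusted p = 0.0578) but rose without synthetic mtDNA (0.59, edgeR adjusted p = 0.021).

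CYTB, which encodes cytochrome b of complex III (chrM:14145-15288), fell on the L strand from 3.18 to 1.29% on average, by 1.32 on the log2 scale, without overlap, but was not called among converted calls (-0.69, edgeR adjusted p = 0.0826). Its H-strand rise of 0.36 was called with all 5 pairs (edgeR adjusted p = 0.0368) but not when ESC 1, brain 1, liver 1 or synthetic mtDNA was left out, where the adjusted p was 0.0554 to 0.0795. It was also not called as a share of the same strand (0.04, edgeR adjusted p = 0.795) or among converted calls (0.15, edgeR adjusted p = 0.364). The control region, which runs from the end of TrnP to the end of the reference, fell on the L strand in every preparation, from 1.17% on average to 0.715%, by 0.71 on the log2 scale, but its change was 0.03 as a share of the L strand and 0.34 among converted calls, neither called. Its H strand was not called (-0.09, edgeR adjusted p = 0.66).

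The rRNA genes showed another pattern. mt-Rnr2, the 16S rRNA gene (chrM:1094-2675), held H-strand shares of 3.47, 2.87, 3.41, 3.12 and 2.75% at 5 min and 1.45, 1.46, 1.62, 1.67 and 2.31% at 60 min in the order used above. It fell by 0.89 (edgeR adjusted p = 0.000858) without overlap, whereas its L-strand share was 3.16% at 5 min and 3.21% at 60 min and was not called (0.01, edgeR adjusted p = 0.981). As a share of the L strand alone mt-Rnr2 rose by 0.74 (edgeR adjusted p = 0.000765). mt-Rnr1, the 12S rRNA gene (chrM:70-1024), rose on the L strand by 0.30 in 5 of 5 preparations (edgeR adjusted p = 0.0485), but the durations overlapped and the call was lost when any 1 of the 5 pairs was left out, with adjusted p of 0.0768 to 0.115. As a share of the L strand it rose by 1.04 (edgeR adjusted p = 5.93e-05). Its H strand was not called (-0.31, edgeR adjusted p = 0.145) but fell as a share of the same strand (-0.63, edgeR adjusted p = 0.0131) and among converted calls (-0.50, edgeR adjusted p = 0.0466). The calls of mt-Rnr2 on the L strand were 37.9% unconverted at 5 min and 2.19% at 60 min.

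The tRNA genes moved in both directions on both strands. Of the 19 with listed cytosines, 8 fell and 6 rose on the L strand (median -0.07) and 8 fell and 7 rose on the H strand (median -0.02). TrnD, the gene of the aspartate tRNA (chrM:6942-7011), went from 332, 677, 654, 357 and 390 L-strand calls at 5 min to 7, 11, 7, 10 and 33 at 60 min (preparations in the order given for H892), a log2 change of share of -5.14. TrnP, the gene of the proline tRNA (chrM:15356-15422), went from 161, 473, 383, 245 and 363 L-strand calls to 0, 4, 3, 3 and 47. Neither overlapped between the durations, and synthetic mtDNA, the deepest library at 60 min, kept the most calls of both. At 5 min 94.1% of the TrnD and 90.1% of the TrnP L-strand calls were unconverted on average. Among converted calls TrnD changed by -2.16 (edgeR adjusted p = 0.0178). TrnP was not called among them (-4.15, edgeR adjusted p = 0.0678).

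By the edgeR estimate, the largest L-strand gain among tRNA genes was that of TrnW (chrM:4950-5016), with shares of 0.0229, 0.0184, 0.0213, 0.0167 and 0.0217% at 5 min and 0.0539, 0.123, 0.0796, 0.076 and 0.0853% at 60 min. It rose by 2.01 ± 0.54 (edgeR adjusted p = 3.94e-05), without overlap. TrnR, the gene of the arginine tRNA, rose by 1.80 in the edgeR fit and by 2.05 ± 1.36 as a mean over preparations, on 3 to 30 calls at 5 min and 30 to 88 at 60 min, a call lost without ESC 1 (edgeR adjusted p = 0.0938) or ESC 2 (0.0768). TrnS2, a serine tRNA gene, rose by 1.76 on the H strand without overlap, and TrnE, the gene of the glutamate tRNA, by 1.30 with overlap.

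The largest H-strand falls among tRNA genes in the edgeR fit were those of TrnF (-1.49) and TrnT, the threonine tRNA gene (-1.40), in 4 of 5 preparations each, with synthetic mtDNA higher at 60 min in both. TrnV was close to them, at -1.39. The TrnF call was lost without ESC 1 (edgeR adjusted p = 0.0804) or without brain 1 (0.0734), and among converted calls (-0.66, edgeR adjusted p = 0.296). TrnF begins at nt 1, where the linear reference starts, and TrnT (chrM:15289-15355) holds the BglII site, where synthetic mtDNA has its ends. At H15328 in TrnT, coverage at 5 min was 239, 274, 144 and 234 in the native preparations and 7 in synthetic mtDNA. At 60 min it was 21, 14, 19, 33 and 22. The part of these ends in the changes of TrnT, TrnP and TrnF was not tested.

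The 3 preparations outside the pairs were set beside these gene changes. Of the 21 L-strand features that fell, 18 had shares in ESC 3, brain 2 and liver 2 at 60 min that all lay below every 5 min library, and of the 13 H-strand features that rose, 11 had shares that all lay above. Of the 7 L-strand features that rose, 1 did so, and of the 9 H-strand features that fell, 4 did. Of the 7 L-strand features not called, 0 lay all below or all above. Of the 13 H-strand features not called, 0 lay all below and 2 all above. These are unpaired values with no 5 min library of their own. The same 5 min libraries were used to call the features, so part of the match is built in.

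By local sequence, L-strand sites with at least 10 other listed L-strand cytosines within 25 nt lost more summed coverage than those with fewer, in each preparation. L-strand sites with 0 to 4 such cytosines (34 sites) changed by -0.16 ± 0.24 (SD, n = 5) on the log2 scale and those with 5 to 9 (697 sites) by -0.14 ± 0.22. Sites with 10 to 14 (2063 sites) fell by 0.77 ± 0.07, those with 15 to 19 (1018 sites) by 0.96 ± 0.10 and those with 20 or more (78 sites) by 1.12 ± 0.26, in each of the 5 preparations. The neighbouring classes of 15 to 19 and 20 or more overlapped between preparations, as did the first pair. Medians over single sites were -0.30, -0.68, -1.36, -1.70 and -1.15 in the same order of classes, so that the last class was not the lowest by that measure. The difference between 20 or more and 0 to 4 was -0.97 ± 0.27, with -0.60 in ESC 1, -1.24 in ESC 2, -1.12 in brain 1, -1.11 in synthetic mtDNA and -0.77 in liver 1 (exact sign-flip permutation test, p = 0.0625).

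H-strand sites with 0 to 4 cytosines of their strand (482 sites) rose by 0.38 ± 0.07, those with 5 to 9 (1115 sites) by 0.33 ± 0.02 and those with 10 to 14 (335 sites) by 0.18 ± 0.11. The difference between 10 to 14 and 0 to 4 was -0.21 ± 0.15 and lay below 0 in 5 of 5 preparations (exact sign-flip permutation test, p = 0.0625). Medians over single sites were 0.38, 0.16 and -0.23 in the same order of classes. Changes among converted calls were 0.17, 0.14 and -0.07. The class of 10 to 14 thus lay below 0 on average by both of these measures. At the same number of local cytosines the L strand changed by less than 0 relative to the H strand, by -0.54 ± 0.25 at 0 to 4, -0.47 ± 0.23 at 5 to 9 and -0.95 ± 0.14 at 10 to 14 cytosines, in 5 of 5 preparations each (exact sign-flip permutation test, p = 0.0625 each). Among converted calls alone these differences were -0.35, -0.22 and -0.44. At 0 to 4 and 5 to 9 the sign was then not the same in every preparation (exact sign-flip permutation test, p = 0.125 each).

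**Figure D5:**
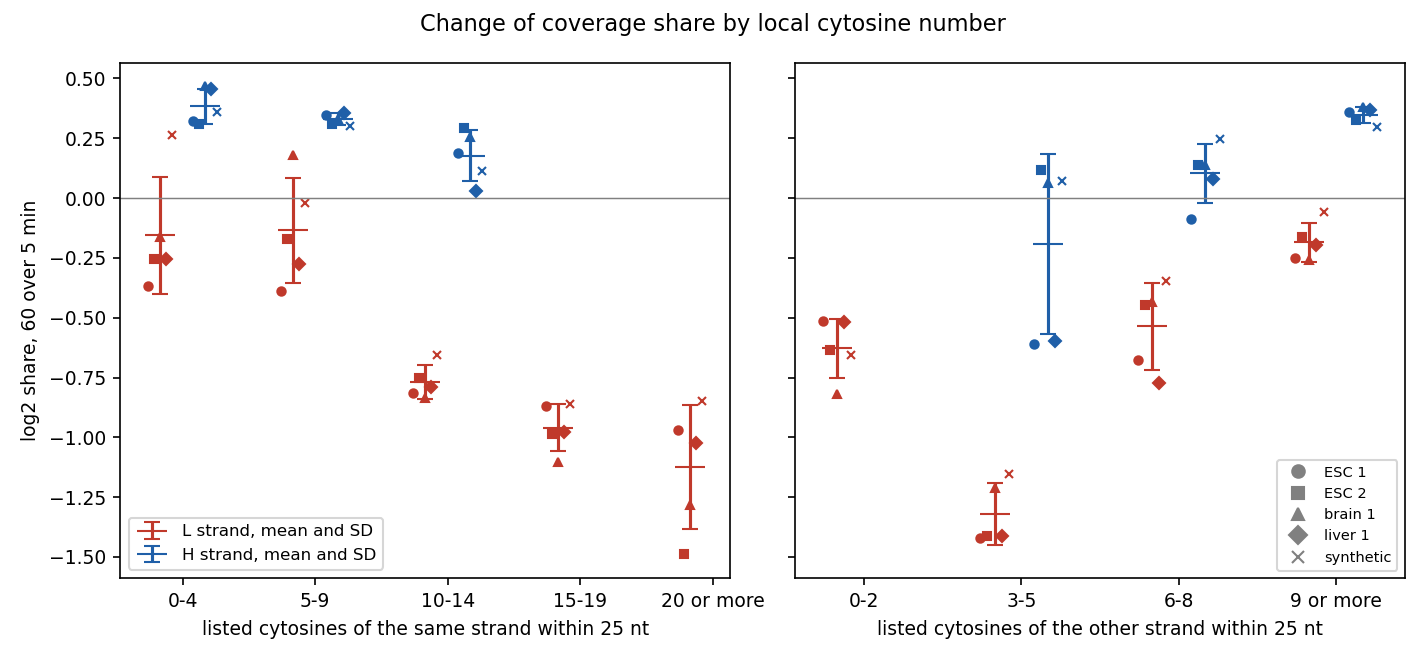
Log2 change of the coverage share between 60 and 5 min for classes of sites by the number of listed cytosines of the same strand (left) and of the other strand (right) within 25 nt, with symbols for preparations and mean and SD bars (L strand red, H strand blue, classes of at least 20 sites). With all calls counted, the L strand goes from -0.16 to -1.12 on the left. On the right its lowest class is 3 to 5, at -1.32.

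The number of H-strand cytosines near the site, that is guanines of the L strand, gave a different order. L-strand sites with 0 to 2 of them (499 sites) fell by 0.63 ± 0.12, those with 3 to 5 (1402 sites) by 1.32 ± 0.13, those with 6 to 8 (1198 sites) by 0.54 ± 0.18 and those with 9 or more (791 sites) by 0.18 ± 0.08. The class of 3 to 5 lay below every other class in each preparation. The classes of 0 to 2 and 6 to 8 overlapped. The difference between 9 or more and 0 to 2 was 0.44 ± 0.15, in 5 of 5 preparations (exact sign-flip permutation test, p = 0.0625), and it was 0.09 among sites with 10 to 14 cytosines of their own strand (p = 0.4375).

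The calls that remained in these L-strand classes differed in conversion. In sites with 0 to 2 neighbouring guanines, 91.9% of the calls were unconverted at 5 min and 87.8% at 60 min. With 3 to 5 guanines the values were 75 and 30.2%, with 6 to 8 they were 46.9 and 3.12%, and with 9 or more 32.2 and 0.621%. The class that fell most with all calls counted was thus the one whose calls went from mostly unconverted to mostly converted. Its share of all calls went from 14.2 to 5.71%. No H-strand class of at least 20 sites had more than 0.658% of its calls unconverted at 60 min. The L-strand calls include wholly unconverted reads, which the study later excluded. The study gives an H-strand origin of such reads as a possibility.

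Both numbers were also combined on the L strand. Among the sites with 10 to 14 own-strand cytosines, those with 3 to 5 guanines (711 sites) fell by 1.47 ± 0.08 and those with 9 or more (440 sites) by 0.36 ± 0.13 (SD, n = 5). With 15 to 19 cytosines the corresponding changes were -1.55 ± 0.16 and -0.16 ± 0.14. The loss did not grow with own-strand cytosines in every guanine class. With 0 to 2 guanines, sites with 5 to 9 cytosines (35 sites) changed by -1.06 ± 0.28, and those with 10 to 14, 15 to 19 and 20 or more by -0.45, -0.73 and -0.81. The lowest value, -1.94 ± 0.23, was that of 23 sites with 20 or more cytosines and 3 to 5 guanines, and the highest, 0.06 ± 0.34, that of 225 sites with 5 to 9 cytosines and 6 to 8 guanines. Across single L-strand sites the relation was weak, with Spearman's rho of -0.171 to -0.122 for own-strand cytosines and 0.167 to 0.292 for guanines over 3400 sites in each preparation. Sites share reads and base composition, so these coefficients are a description.

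Synthetic mtDNA, which holds no 5-methylcytosine, showed the same direction of the strand change as the native preparations. Its log2 change of the L over H odds was -0.91, and those of the native preparations were -1.09 in ESC 1, -1.07 in ESC 2, -1.09 in brain 1 and -1.11 in liver 1. Of the 67 gene and strand features with a ratio in all 5 preparations, synthetic mtDNA lay within the range of the native ones in 37, above it in 23 and below it in 7. With a single synthetic preparation no exact permutation test can go below p = 0.2, so these differences were not tested.

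Over time, the ATP6 L-strand share had changed by -2.57 ± 0.48 (SD, n = 5) on the log2 scale after 15 min, -3.03 ± 0.43 after 40 min and -2.95 ± 0.18 after 60 min, all against the same 5 min libraries. COX2 on the L strand followed with -1.77 ± 0.53, -2.34 ± 0.32 and -2.19 ± 0.34, and ND4 with -1.56 ± 0.38, -2.38 ± 0.50 and -2.25 ± 0.21. The H strand of ATP8 had risen by 1.2 ± 0.31 after 15 min and by 2.14 ± 0.35 after 40 min. The H strand of mt-Rnr2 had changed by -0.47 ± 0.29 after 15 min and -0.89 ± 0.34 after 40 min.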

How the data were processed

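PBAT libraries were treated by the authors as follows. First reads were trimmed with Trim Galore and mapped to mouse mtDNA (mm10) with Bismark in its PBAT mode, the versions for these libraries not being given in the sources used here. The authors deposited, site by site, the coverage, a raw count of reads, and the percent of those reads left unconverted. The exclusion of reads with mostly unconverted cytosines, which the study applied later, was not made here. In the study, a large part of the reads mapped to the L strand stayed wholly unconverted, in synthetic mtDNA too. This was not seen on the H strand or in λDNA. The study names the sequence of the L strand as the likely source. Another possibility it gives is copies of H-strand fragments without cytosine that align to the L strand. The L-strand shares here include such reads, and their origin was not tested. The reference has 16299 nt and 160 of its cytosines were not analysed here.

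Unconverted calls were computed as percent times coverage, rounded. Libraries were grouped by the labels into 5 preparations, each with 1 library at 5 and 1 at 60 min. Site and gene coverage was tested with edgeR 4.0.16 (R 4.3.3, quasi-likelihood, Benjamini-Hochberg threshold 0.05), with preparation as block and the total coverage of both strands as library size. Sites needed a mean coverage of at least 10, and 0.5 was added for ratios of single sites. Single values per library were tested by exact two-sided sign-flip permutation tests over preparations, which cannot go below p = 0.0625. Local numbers count listed cytosines within 25 nt on the linear reference, so they are undercounts beside the 160 that were not analysed. In simulated data with a log2 change of 1, 70% of 200 changed sites among 5332 and 100% of 14 changed genes among 70 were recovered, with 0.156% and 3.57% of unchanged ones called. The simulated counts were independent, and the few changes were balanced between rises and falls. Here neighbouring sites share reads and most sites were called, so these rates do not carry over.

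The pairing comes from the study's design, in which 1 preparation was divided among durations. Deviations from the mean of each duration, over 63 gene and strand features with at least 10 calls, correlated within a preparation with r of -0.148 to 0.361, above 0.1 in 4 of 5, and 2 of 5 correlated best with their own. Preparations of the ESC line and of the tissues were counted as replicates, and whether tissues came from single animals was not given.

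Named genes were the 13 protein genes, 2 rRNA genes, the control region and, for each strand, the 2 tRNA genes with the largest rise and the 2 with the largest fall. Named sites were the 5 largest rises and the 5 largest falls for each strand among sites called and changed alike in all 5 preparations, at least 100 nt apart, and H15328 was added after its values were seen. The members and lists were chosen with earlier results of these data known. Alternatives were leaving out each preparation, no block, TMM, DESeq2 1.42.0, shares of the same strand, converted calls only, other coverage minimums, a window of 50 nt and medians over sites. The measure of the most covered sites, 20% of sites in its place, and the alternatives for the other strand's cytosines were added after seeing the data.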

Additional observations from a re-analysis of the deposited data

Results flagged for a closer look

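Of 72 sets of 5 values, 1 for each preparation, 7 had a preparation far from the other 4, a property that chance gives to about 1 in 20 sets. Synthetic mtDNA stood apart in the log2 change of the L over H odds (-0.91, against -1.11 to -1.07 in the native preparations), of the L-strand share (-0.62, against -0.78 to -0.74) and of converted H-strand calls (0.79, against 0.89 to 0.91). These 3 values are not independent of each other. It also stood apart in the L minus H difference at 0 to 4 local cytosines (-0.10, against -0.71 to -0.56). On the H strand, mt-Rnr1 changed by -1.13 in ESC 1 (others -0.27 to 0.064), CYTB by 0.96 in brain 1 (others 0.16 to 0.31) and ND4L by 0.65 in ESC 2 (others -0.08 to 0.13).

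Synthetic mtDNA moved in the direction opposite to all 4 native preparations in 8 of the 67 gene and strand features and in 1 class of sites. L-strand sites with 0 to 4 local cytosines changed by 0.26 in synthetic mtDNA and by -0.37 to -0.16 in native mtDNA. The H-strand values were 0.064 against -1.13 to -0.09 for mt-Rnr1, 0.55 against -2.63 to -0.88 for TrnF, 0.24 against -2.18 to -1.38 for TrnT, 0.22 against -0.59 to -0.14 for TrnW, 0.068 against -1.02 to -0.75 for TrnA and -0.14 against 0.18 to 1.18 for COX3. The L-strand values were -0.30 against 0.51 to 0.92 for TrnF and 0.14 against -3.13 to -0.88 for TrnE. These differences were not tested, since there is 1 synthetic preparation.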

How the results depend on the processing

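Without the replicate block, that is without the pairing by preparation, exact permutation p-values can reach 0.00794, and values whose means are the same by construction passed the threshold: L over H odds (-1.06, p = 0.00794), L-strand converted (0.28, p = 0.0317) and unconverted calls (-1.72), H-strand converted (0.88) and unconverted calls (-6.02), the L-strand cytosine (-0.97, p = 0.0238) and guanine contrasts (0.44), the H-strand contrasts (-0.21, p = 0.0397 and 0.54, p = 0.0238) and L minus H at 5 to 9 (-0.47, p = 0.0317) and 10 to 14 cytosines (-0.95). That at 0 to 4 did not (exact permutation p = 0.0556). Counts of edgeR calls stayed within 1.5 times without the block.

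With converted calls only, the L over H odds changed by -0.60, the L-strand cytosine contrast by -0.60, L minus H by -0.22 at 5 to 9 and -0.44 at 10 to 14 cytosines, 823 L-strand sites fell, and L-strand genes that rose and fell numbered 4 and 13 and H-strand genes that rose 7. With a window of 50 nt, whose lowest L-strand class holds 18 sites and highest 11, the cytosine contrast was -4.54 on the L and -0.43 on the H strand. With medians over sites, the guanine contrast was 0.85 on the L strand, the cytosine contrast -0.61 on the H strand, and L minus H -0.85 at 5 to 9 and -1.13 at 10 to 14. The guanine contrast within 10 to 14 cytosines was 0.091. With TMM, 731 L-strand and 1114 H-strand sites rose and 208 H-strand sites fell, and 51.9% of gene calls were higher, against 40.0% without it. With DESeq2, 686 L-strand sites rose and 232 H-strand sites fell. As shares of the same strand, 902 L-strand and 478 H-strand sites rose, 692 H-strand sites fell, 11 L-strand genes rose and 11 fell, and 7 H-strand genes rose. The directions of ND1 (0.048), ND2 (0.23) and the control region (0.026) on the L strand turned in the same setting, and those of ND3 (0.88) and the control region (0.34) among converted calls. Leaving out each preparation gave 3 to 6 L-strand genes that rose. The cause of these changes was not tested. Fewer than 10 calls at many L-strand sites after 60 min limit single sites.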

Other observations

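ESC 3 has libraries of 60 and 90 min but none of 5 min. Its L-strand share of coverage was 21.2% at 60 min and 23.8% at 90 min, with 972254 and 257028 calls. From 60 to 90 min the L-strand share of ATP6 changed by 1.42 and that of ATP8 by 1.09 on the log2 scale, that of COX2 by 0.33 and that of ND4 by -0.11, and the H-strand share of ATP8 by 0.96 and that of ND4 by -0.51. There is 1 pair of libraries and no replicate.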
